A study of Mus musculus with 15 samples.

Results

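The mir-130 and mir-301 family comprises microRNAs (miRNAs) of the precursors mir-130a, mir-130b, mir-130c, mir-301a and mir-301b, and its members were taken by these names, with both arms of each precursor. Of the 1836 mature miRNAs listed in the counts, 6 belonged to the family: mir-130a-3p, mir-130a-5p, mir-130b-3p, mir-130b-5p, mir-301b-3p and mir-301b-5p. They come from 3 of the 5 precursors, and mir-130c and mir-301a were not analysed here.

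Small RNA of the left ventricle (LV) was sequenced from 15 mice, 5 in each of 3 groups, with a library for each mouse. Wild-type (wt) mice were compared with AGAT-/- mice, which lack the enzyme L-arginine:glycine amidinotransferase and therefore do not form homoarginine (hArg) or the precursor of creatine, and with AGAT-/-hArg mice, the same knockout given hArg from osmotic mini pumps for 4 weeks. The mice were littermates on a C57BL/6J background, wt and AGAT-/- mice are labelled as untreated controls, and age and sex are not given in the sources used here. MiRNA counts do not measure the deleted gene, so the genotype could not be checked in these libraries. Libraries held between 365634 and 570492 reads, and 71.5% to 74.8% of the reads in each fell to its 3 top miRNAs. The labels place wt and AGAT-/- libraries on lane 8 and AGAT-/-hArg libraries on lane 2, so that lane and supplementation cannot be told apart.

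A miRNA guides a silencing complex to messenger RNAs that pair with its seed, the short stretch behind its first base. A precursor hairpin is processed into a duplex, from which the 5p or the 3p arm is retained as the guide. In this family the 3p arms carry a common seed, and the family is known for roles in vascular smooth muscle and endothelial cells, among them the control of proliferation in pulmonary hypertension and of angiogenesis. In the heart, mir-130a is known to repress the gap junction protein connexin 43.

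Mature sequences were found in RefSeq (GRCm38.p6) for 5 of the 6 members, and are shown 5′ to 3′ with the seed, bases 2 to 8, in capitals, because the seed sets which members act as a family. The 3p arms of mir-130a and mir-130b share the seed AGUGCAA, which 7 mature mouse miRNAs of that table carry, 2 of them with counts here. The member without a mature sequence there is mir-301b-3p. Its hairpin holds the motif AGUGCAA from base 56, behind the 5p arm.
mir-130a-3p: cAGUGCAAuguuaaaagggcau
mir-130b-3p: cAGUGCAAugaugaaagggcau
The 5p arms begin alike, with seeds that differ between these 3 members.
mir-130a-5p: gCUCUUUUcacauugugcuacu
mir-130b-5p: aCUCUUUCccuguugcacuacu
mir-301b-5p: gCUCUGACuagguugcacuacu
Mir-130a-3p and mir-130b-3p are identical at 20 of 22 positions and differ by U11A and A13G, counted from the 5′ end with the base of mir-130a-3p first. The counting of reads with more than one matching miRNA is not described, and values of this pair are uncertain to that extent. The seed of mir-130a-5p, CUCUUUU, was found in no other mature miRNA of the table. The 5 other miRNAs with the seed AGUGCAA, mir-130c, mir-301a-3p, mir-721, mir-6341 and mir-6389, were not analysed here.

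The hairpin of mir-130a is shown with both mature arms in capitals, since one of them, mir-130a-5p, is the member that passed the FDR.
Mir130a: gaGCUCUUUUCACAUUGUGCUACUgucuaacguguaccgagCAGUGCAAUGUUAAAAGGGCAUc
It lies on the minus strand at chr2:84741115-84741178 (GRCm38), is 64 bases long and overlaps no other gene of the GENCODE M21 annotation. Mir130b (chr16:17124061-17124142) and Mir301b (chr16:17124400-17124496) also lie on the minus strand, within an intron of 2610318N02Rik on the same strand, with 257 bases between the hairpins.

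Before the results, a limit of these counts has to be given. Of the 1836 miRNAs, 672 were listed at 0 in all 15 libraries, and among them were the 3p arms of mir-1a-1, mir-1a-2, mir-133a-1, mir-133a-2 and mir-208a, known as abundant miRNAs of cardiac muscle. The 3p arm of mir-143, known from smooth muscle, and both arms of mir-451a, known from red blood cells, were listed at 0 as well, and mir-126a-3p, known from endothelium, had between 3 and 13 reads per library. The cause was not tested. A count of 0 is therefore given here only as listed, and the order of counts between miRNAs or between arms is an order within these counts, not a ranking of their abundance in the LV. Whether reads are also missing from miRNAs with counts, mir-130a-3p among them, was not tested, so that fold changes and FDR values, passed or not, hold for these counts only.

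The family had 947 reads over the 15 libraries. Mir-130b-5p held 40.8% of them (386 reads), mir-130a-3p 30.5% (289 reads), mir-130a-5p 15.8% (150 reads) and mir-301b-3p 11.8% (112 reads). These 4 members had reads in every library. Mir-130b-3p had 9 reads in all, from 5 of the 15 libraries, and mir-301b-5p had 1 read, in AGAT-/- mouse 8. A test required a sum above 10 reads in the 10 libraries compared. The same 4 members met this in each comparison and the last 2 did not.

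Values are TMM-normalized CPM, reads scaled to the size of the library and corrected for differences in composition between libraries. One read corresponded to between 1.64 and 2.73 CPM. By mean CPM over the 15 libraries, mir-130b-5p came first (56.0) and mir-130a-3p second (41.9), followed by mir-130a-5p (21.9) and mir-301b-3p (16.1). These were ranks 166, 185, 229 and 262 among the 1164 miRNAs with reads. The order of the last 2 differed between groups. In wt mice mir-301b-3p (16.1 CPM) came before mir-130a-5p (12.8 CPM). It came after mir-130a-5p in AGAT-/- (13.5 and 31.6 CPM) and AGAT-/-hArg mice (18.7 and 21.4 CPM). In wt mice the range of mir-130a-5p, 7.60 to 16.8 CPM, lay below that of mir-130b-5p, 39.4 to 77.5 CPM. The nearest miRNAs to mir-130a-3p in this order were mir-135a-2-3p (42.5 ± 14.2 CPM) and mir-34b-5p (41.8 ± 10.1 CPM; SD, n = 15).

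Mir-130a-5p was higher in AGAT-/- as compared with wt mice, by 2.40-fold, and was the only member to pass the FDR in this comparison. It is the arm of mir-130a that does not carry the family seed. In wt mice 1 to 5 it had 7, 4, 8, 3 and 6 reads, or 15.3, 9.37, 16.8, 7.60 and 14.8 CPM. In AGAT-/- mice 6 to 10 it had 12, 22, 13, 12 and 13 reads, or 28.9, 38.2, 35.5, 25.0 and 30.1 CPM. All 5 AGAT-/- mice lay above all 5 wt mice. The wt mean was 12.8 ± 4.02 CPM, that of AGAT-/- mice 31.6 ± 5.28 CPM (SD, n = 5 per group). The log2 fold change was 1.26 ± 0.29 (SE, 95% CI 0.65 to 1.87), at an FDR of 0.0216 in edgeR's quasi-likelihood test with Benjamini-Hochberg adjustment over 562 miRNAs. In LV tissue, more cells of a type and more RNA per cell cannot be told apart.

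**Figure D1:**
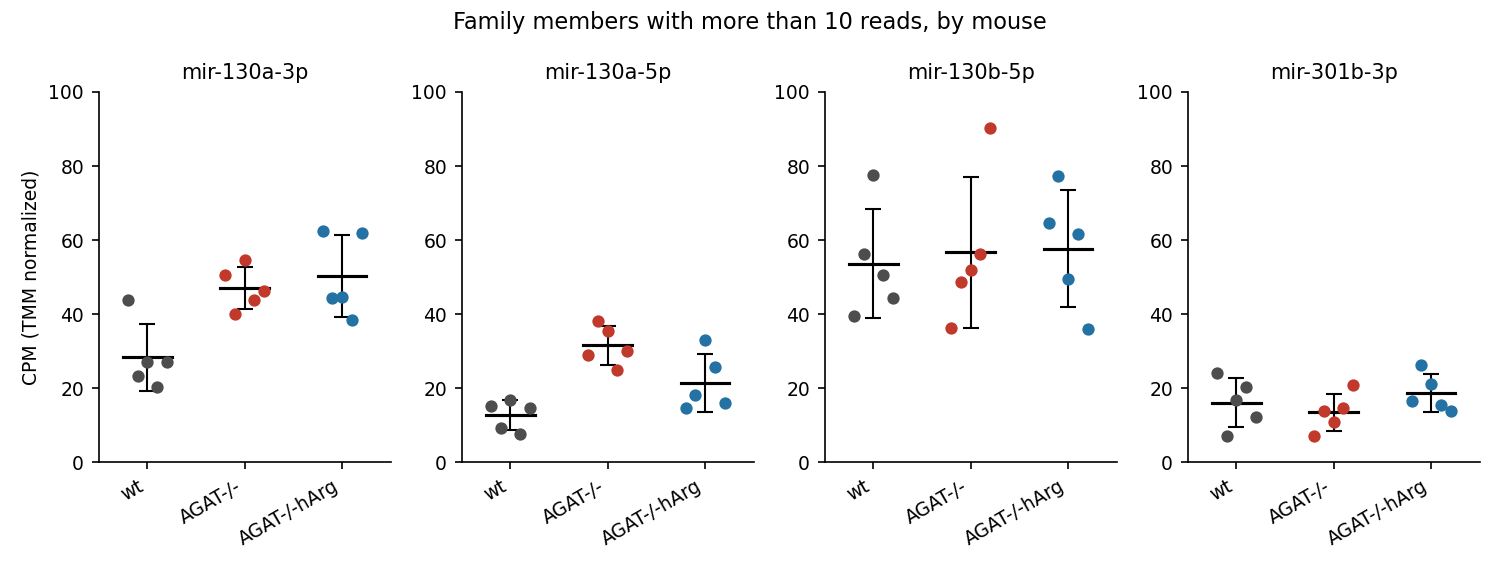
CPM (TMM normalized, vertical axis) of the 4 members with more than 10 reads in wt, AGAT-/- and AGAT-/-hArg mice; points are single mice, bars the mean ± SD of 5 mice. For mir-130a-5p the AGAT-/- mice (25.0 to 38.2 CPM) sit above all wt mice (7.60 to 16.8 CPM), while these groups overlap for mir-130a-3p, mir-130b-5p and mir-301b-3p.

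The difference of mir-130a-5p rests on 28 reads in wt and 72 reads in AGAT-/- mice, and their ratio, scaled to library size, was 2.45 (95% CI 1.56 to 3.94, exact binomial, counting error only). It lost the FDR when wt mouse 2, wt mouse 4, AGAT-/- mouse 7 or AGAT-/- mouse 8 was left out (log2 fold changes of 1.17, 1.14, 1.16 and 1.23, FDR of 0.0778, 0.0522, 0.0701 and 0.0615) and with the last number of the library names, taken here as an animal number, as a covariate (1.29, FDR of 0.171), against FDR values of 0.0162 to 0.171 over its 6 alternatives. All AGAT-/- mice except mouse 6 had a higher animal number than any wt mouse. Animal number and genotype can therefore hardly be told apart, and the covariate takes up much of the contrast between the groups.

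Mir-130a-3p, the arm with the family seed, had 20, 10, 13, 8 and 11 reads in wt mice 1 to 5, which are 43.8, 23.4, 27.2, 20.3 and 27.1 CPM. AGAT-/- mice 6 to 10 had 21, 23, 20, 21 and 20 reads, or 50.6, 39.9, 54.6, 43.8 and 46.3 CPM. Wt mouse 1 was the highest of its group and lay within the range of AGAT-/- mice, while the other 4 wt mice lay below all of them. The wt mean was 28.4 ± 9.09 CPM and the AGAT-/- mean 47.1 ± 5.75 CPM (SD, n = 5 per group), with a log2 fold change of 0.69 ± 0.23 (SE, 95% CI 0.20 to 1.18). This did not pass the FDR (0.190, edgeR). The 5 AGAT-/- libraries differed from each other by less than counting error alone gives on average, with a variance of 0.322 times the Poisson value. One arm past the FDR and the other not does not show that the arms differ, and the difference between their fold changes was not tested.

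Mir-130b-5p and mir-301b-3p, from the pair of hairpins on chromosome 16, did not pass the FDR. For mir-130b-5p, wt mice 1 to 5 had 39.4, 56.2, 77.5, 50.7 and 44.4 CPM and AGAT-/- mice 6 to 10 had 36.2, 48.6, 51.9, 56.3 and 90.4 CPM. The log2 fold change was 0.053 ± 0.25 (SE, 95% CI -0.46 to 0.57, FDR of 0.971), and its sign turned with the animal number as a covariate and without some of the mice. For mir-301b-3p, the groups had 3 to 11 and 3 to 9 reads per library, and the log2 fold change was -0.25 ± 0.37 (SE, 95% CI -1.03 to 0.52, FDR of 0.908). This interval spans changes in either direction. Mir-130b-3p had 4 reads in wt, 3 in AGAT-/- and 2 in AGAT-/-hArg mice, and no comparison was made.

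Between AGAT-/- and wt mice, 1 of the 4 members tested passed the FDR, where 2.14% of all 562 miRNAs tested did (12 miRNAs, 9 higher and 3 lower, or 14 and 3 with total counts in place of TMM, and 5 and 3 without wt mouse 2). Likewise 1 of 4 had groups that did not overlap, as against 3.38% of all miRNAs tested. The median log2 fold change of the 562 miRNAs was -0.043. Since mir-130a was known to differ when the family was chosen, nothing particular to the family is read from these counts. The plot of fold changes by read number shows mir-130a-5p among miRNAs of low read number, where fold changes scatter more widely than among abundant miRNAs.

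**Figure D2:**
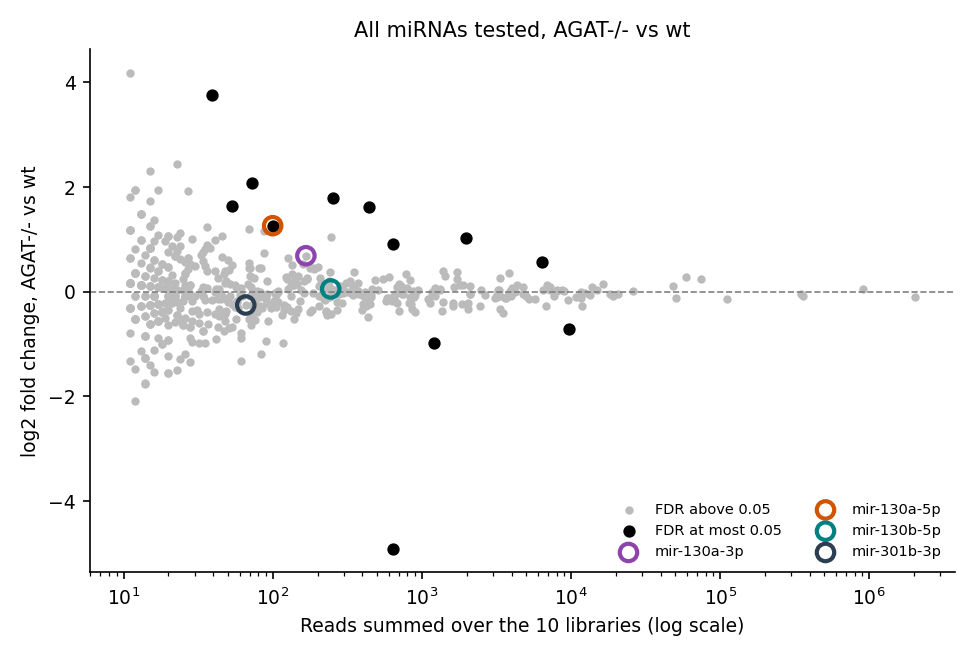
Log2 fold change between AGAT-/- and wt mice (vertical axis) against reads summed over the 10 libraries (horizontal axis, log scale) for the 562 miRNAs tested; black points passed an FDR of 0.05 and rings mark the 4 family members. Mir-130a-5p (100 reads, log2 fold change 1.26) is the one member among the 12 black points, and mir-130a-3p (167 reads, 0.69) lies below it.

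To see whether hArg changed the family in AGAT-/- mice, AGAT-/-hArg mice were compared with AGAT-/- mice. No member passed the FDR in edgeR (0 of 4) or DESeq2 (0 of 4), and 1 of 4, mir-130a-5p, had an unadjusted p below 0.05. Over all 580 miRNAs tested, 0.69% passed the FDR, which was 4 miRNAs, and 43 had an unadjusted p below 0.05. The groups overlapped for all 4 members, while 2.41% of all miRNAs tested had groups that did not.

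Mir-130a-5p had 7, 11, 14, 10 and 8 reads in AGAT-/-hArg mice 11 to 15, or 14.6, 18.1, 33.0, 25.6 and 16.0 CPM, with a mean of 21.4 ± 7.73 CPM (SD, n = 5). Mice 11, 12 and 15 lay below the lowest AGAT-/- mouse, and mice 13 and 14 within the AGAT-/- range. The log2 fold change was -0.58 ± 0.27 (SE, 95% CI -1.14 to -0.020) at an FDR of 0.642 in edgeR. Mir-130a-3p had 30, 27, 19, 15 and 31 reads in these mice, or 62.4, 44.3, 44.7, 38.5 and 61.8 CPM. Its mean was 50.4 ± 11.0 CPM (SD, n = 5), with mice 11 and 15 above all AGAT-/- mice and mouse 14 below them. The log2 fold change to AGAT-/- mice was 0.13 ± 0.20 (SE, 95% CI -0.29 to 0.56, FDR of 0.95) and ran from 0.032 to 0.20 without single mice. For mir-130b-5p it was 0.053 ± 0.24 (FDR of 0.970), and for mir-301b-3p 0.48 ± 0.33 (FDR of 0.856).

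As compared with wt mice, AGAT-/-hArg mice had no member past the FDR in edgeR (0 of 4) or DESeq2 (0 of the 2 members it gave an FDR, mir-130a-3p and mir-130b-5p). An unadjusted p below 0.05 was found for 1 of 4, mir-130a-3p, and for 71 of the 569 miRNAs tested, of which 2.99% passed the FDR (9 higher and 8 lower, or 16 and 8 with total counts in place of TMM, and 2 and 9 without wt mouse 5). Groups did not overlap for 3.87% of all miRNAs tested and for none of the 4 members. This comparison shares its groups with the other 2 comparisons. Mir-130a-3p had the log2 fold change with the lowest FDR of the members here, 0.82 ± 0.24 (SE, 95% CI 0.31 to 1.32, FDR of 0.0728, edgeR), with 4 of 5 AGAT-/-hArg mice above all wt mice. It was 0.69 ± 0.34 for mir-130a-5p (95% CI -0.024 to 1.40, FDR of 0.431), 0.11 ± 0.23 for mir-130b-5p (FDR of 0.919) and 0.23 ± 0.34 for mir-301b-3p (FDR of 0.886).

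Mir-130a-3p passed the FDR against wt in AGAT-/-hArg mice when wt mouse 1 was left out (log2 fold change of 1.05, FDR of 0.0218), when all miRNAs with at least 1 read were tested (0.84, FDR of 0.0479) and with all 15 libraries in 1 fit (0.82, FDR of 0.0485). It also passed with total counts (0.92, FDR of 0.0401), which moved the median of all miRNAs from 0.015 to 0.12, so that relative to the median the change was 0.80 with either scaling; FDR values over its 5 alternatives were 0.0401 to 0.0731.

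**Figure D3:**
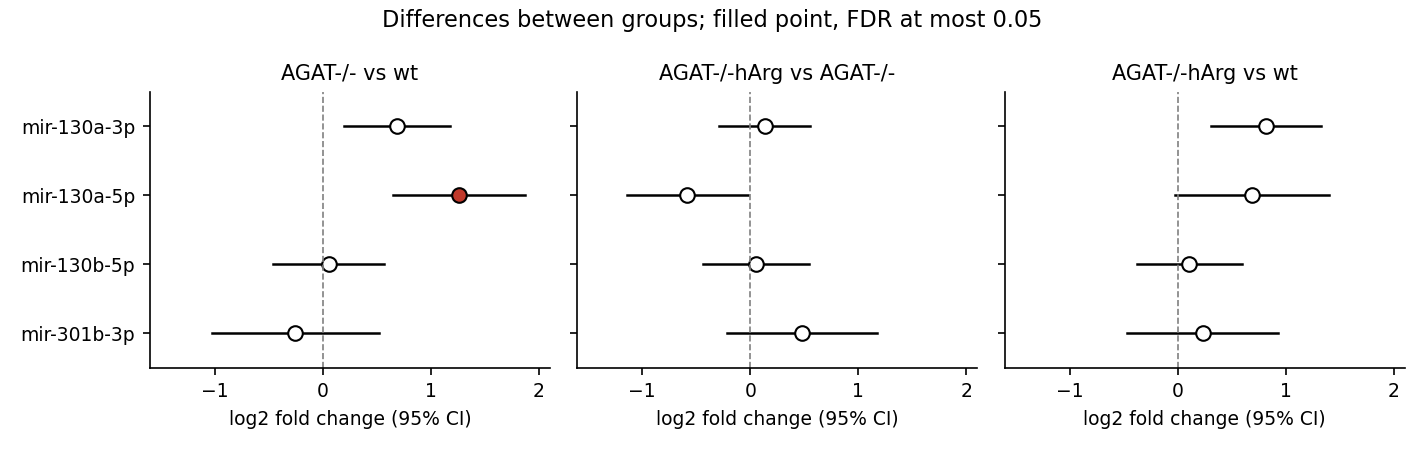
Log2 fold change (horizontal axis) with its 95% CI for the 4 members in each comparison; a filled point passed an FDR of 0.05. Mir-130a-5p in AGAT-/- as compared with wt mice (1.26) is the one filled point, and the interval of mir-130a-5p in AGAT-/-hArg vs wt mice (-0.024 to 1.40) includes 0.

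**Figure D4:**
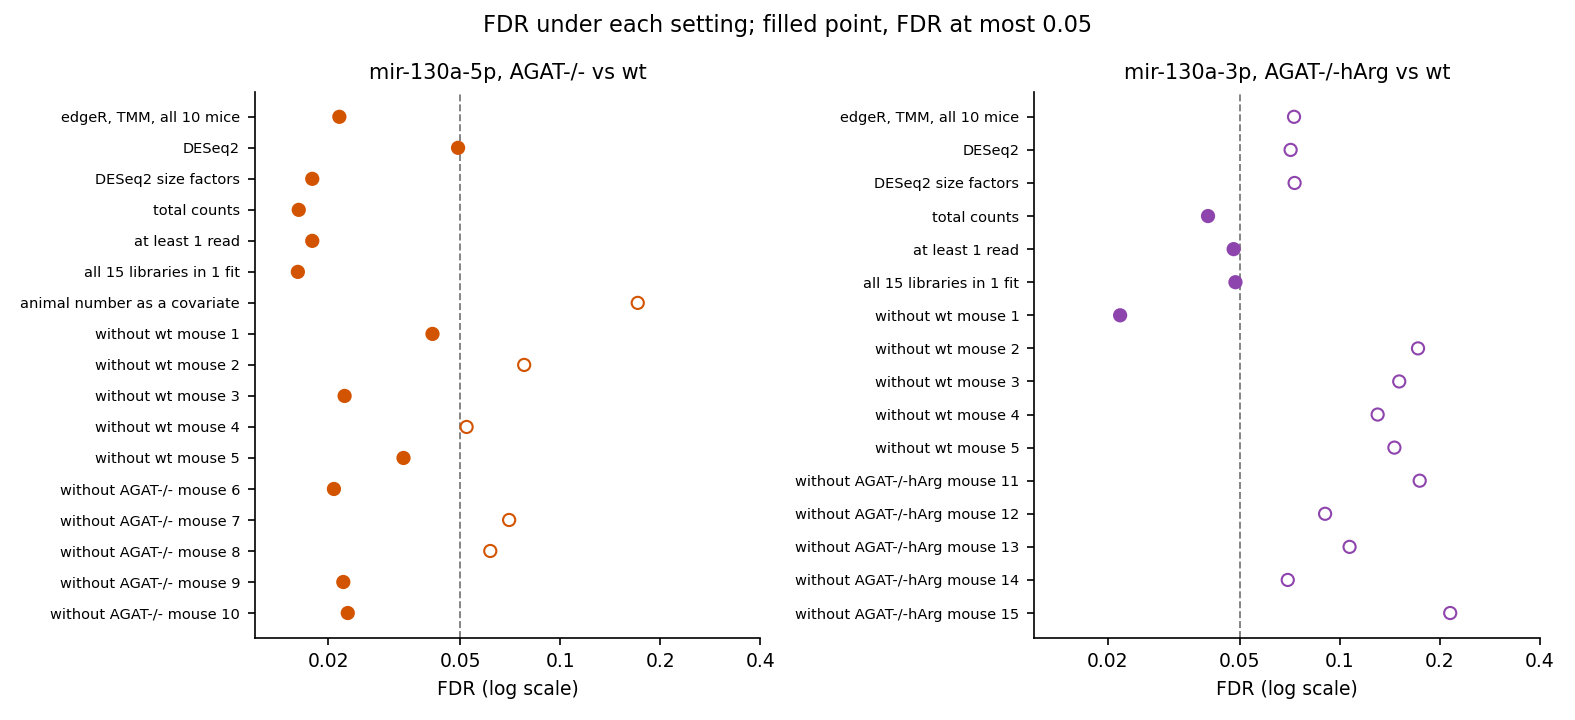
FDR (horizontal axis, log scale) of mir-130a-5p in AGAT-/- vs wt mice (left) and of mir-130a-3p in AGAT-/-hArg vs wt mice (right) under each setting and without each mouse; the dashed line is 0.05 and filled points lie at or below it. For mir-130a-5p the values run from 0.0162 to 0.171, and for mir-130a-3p from 0.0218 to 0.215.

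Both arms of mir-130a were present in every library, with the 3p arm the more frequent in each of the 15 mice. The 5p arm made up 34.2% of the 439 reads of mir-130a. Its share was 31.1% in wt (28 of 90 reads, 95% CI 21.8 to 41.7%), 40.7% in AGAT-/- (72 of 177 reads, 33.4 to 48.3%) and 29.1% in AGAT-/-hArg mice (50 of 172 reads, 22.4 to 36.5%; exact binomial intervals, counting error only). Over single mice the share was 31.0 ± 5.35% in wt, 40.1 ± 5.15% in AGAT-/- and 30.2 ± 10.8% in AGAT-/-hArg mice (SD, n = 5 each). The lowest AGAT-/- mice had 36.4%, below wt mouse 3 with 38.1%, and AGAT-/-hArg mice ran from 18.9% to 42.4%, so that all 3 groups overlapped. The difference in share between the groups was not tested.

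**Figure D5:**
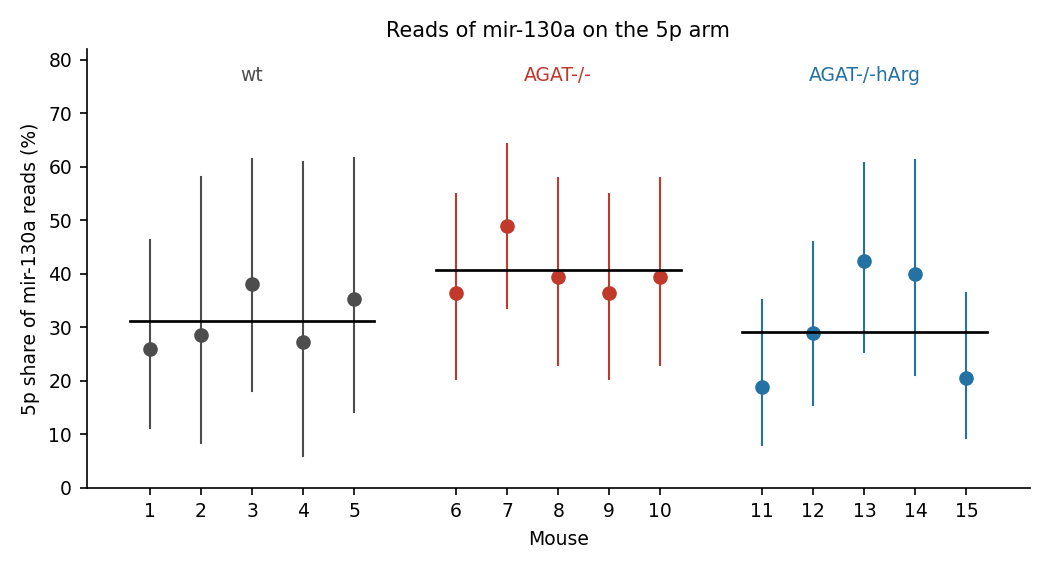
Share of the 5p arm in the reads of mir-130a (vertical axis, %) in each mouse with its 95% exact binomial interval; black lines are the shares of the summed reads of a group, 31.1%, 40.7% and 29.1%. The intervals of single mice, from 11 to 45 reads, overlap between all groups.

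The other precursors gave nearly all reads to one arm. For mir-130b, 97.7% of 395 reads were on the 5p arm, with the seed-bearing 3p arm at 9 reads, while for mir-301b 0.885% of 113 reads were on the 5p arm. Of the 546 precursors with more than 10 reads, 141 had over 90% on the 5p arm, 233 had over 90% on the 3p arm, and 172 (31.5%), mir-130a among them, had at least 10% on each. For 248 of the 546 one arm was listed at 0, so the shares carry the limit of these counts given above.

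Summed over its 6 members, the family had 113 ± 18.5 CPM in wt, 151 ± 26.0 CPM in AGAT-/- and 149 ± 13.6 CPM in AGAT-/-hArg mice (SD, n = 5 each). The sums ran from 96.0 to 140 CPM, from 123 to 192 CPM and from 132 to 166 CPM, and the groups of AGAT-/- and wt mice overlapped. The sum mixes arms with different seeds and is given as a description.

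Mir-148a, mir-148b and mir-152 have the seed CAGUGCA in their 3p arms, the motif of the family moved by 1 base. All 3 seed-bearing arms were listed at 0. Of their 6 arms, 2 were tested, mir-148b-5p and mir-152-5p, and neither passed the FDR in any comparison (median log2 fold changes of 0.061, -0.034 and 0.030 in AGAT-/- vs wt, AGAT-/-hArg vs AGAT-/- and AGAT-/-hArg vs wt mice).

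Other miRNAs known from blood vessels were taken as a list of 22 precursors, 19 of which were listed, with 16 of their 38 arms listed at 0. None of the 18, 19 and 19 arms tested in the 3 comparisons passed the FDR in edgeR. Their median log2 fold changes were -0.032, -0.035 and -0.062, next to -0.043, 0.015 and 0.015 for all miRNAs tested. Their summed CPM was 34022 to 39128 CPM in wt and 39471 to 42485 CPM in AGAT-/- mice, which did not overlap, as for mir-130a-5p, and 36967 to 44791 CPM in AGAT-/-hArg mice, which overlapped with both. Of this sum 43.2% was mir-24-2-5p. The sums were not tested. The 4 with the most reads were mir-24-2-5p, mir-145a-3p, mir-92a-2-3p and mir-155-5p. Between AGAT-/- and wt mice their log2 fold changes were 0.24 ± 0.08, 0.10 ± 0.09, 0.015 ± 0.12 and -0.030 ± 0.09 (SE), with FDR values of 0.138, 0.779, 0.971 and 0.968.

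Markers of the cells of the LV were looked at in the same way. Of 14 arms of cardiomyocyte miRNAs, 6 were listed at 0, all of them 3p arms (mir-1a-1, mir-1a-2, mir-133a-1, mir-133a-2, mir-208a and mir-208b). The rest summed to 1796, 2106, 1975, 1987 and 2041 CPM in wt mice 1 to 5. In AGAT-/- mice 6 to 10 the sum was 1924, 2495, 2336, 2086 and 2111 CPM, and in AGAT-/-hArg mice 11 to 15 it was 2332, 2334, 1998, 2375 and 2371 CPM. The most reads of the list as counted were of mir-499-5p, which is encoded in a myosin gene, at 752 ± 71.4, 976 ± 79.8 and 1012 ± 77.2 CPM in wt, AGAT-/- and AGAT-/-hArg mice (SD, n = 5 each). It passed the FDR in AGAT-/-hArg as compared with wt mice (log2 fold change of 0.43 ± 0.10, FDR of 0.0131, 5 of 5 mice above all wt mice) but not in AGAT-/- as compared with wt mice (0.36 ± 0.10, FDR of 0.0639, 5 of 5 mice above). It was the only one of the 8 arms of the list tested in AGAT-/-hArg vs wt mice to pass. In AGAT-/- vs wt mice 2 of the 7 arms tested had a positive log2 fold change, with a median of -0.039. The median was 0.078 in AGAT-/-hArg vs AGAT-/- mice (5 of 8 positive) and 0.14 in AGAT-/-hArg vs wt mice (6 of 8 positive). For all miRNAs tested the medians were -0.043, 0.015 and 0.015. The part of this and the other marker lists in the mir-130a values was not tested.

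No marker of another cell type passed the FDR in any comparison. For red blood cells, with 3 of 8 arms at 0, sums were 7031 ± 577 CPM in wt, 7224 ± 620 CPM in AGAT-/- and 7076 ± 583 CPM in AGAT-/-hArg mice, led by mir-486a-5p. For white blood cells, also with 3 of 8 arms at 0, they were 2936 ± 249, 2901 ± 192 and 3159 ± 296 CPM, and mir-155-5p made up 97.0% of this. Mir-150-3p of this list went the other way, with means of 72.3, 71.2 and 44.8 CPM. Its log2 fold change was -0.63 ± 0.23 in AGAT-/-hArg vs AGAT-/- mice (SE, FDR of 0.340, edgeR). In AGAT-/-hArg vs wt mice it was -0.64 ± 0.27 (SE, FDR of 0.302, edgeR). In each of these comparisons 2 of the 4 white blood cell arms tested had a positive log2 fold change. Endothelial mir-126a and mir-126b summed to 20.4 ± 7.21, 17.8 ± 8.83 and 17.5 ± 5.95 CPM, most of it mir-126a-3p. Within this sum mir-126a-3p had 18.0 ± 8.43, 15.1 ± 6.92 and 11.1 ± 3.84 CPM, and mir-126a-5p had 0, 1.79 and 3.55 CPM. The log2 fold change of mir-126a-3p in AGAT-/-hArg vs wt mice was -0.75 ± 0.38 (SE, FDR of 0.446). Smooth muscle mir-143 and mir-145a summed to 10562 ± 1215, 11446 ± 1424 and 13036 ± 2589 CPM (SD, n = 5 each), of which mir-145a-3p made up 99.9%. Of the fibroblast list only mir-199a-1 was listed, with both arms at 0.

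The miRNAs whose CPM went most closely with mir-130a-3p over the 15 libraries were sought among 228 miRNAs with a mean of at least 10 reads per library. By Spearman's rho these were mir-191-3p (0.82), mir-6412-3p (0.74), mir-17-3p (0.65), mir-210-5p (0.61) and mir-125b-2-3p (0.61). Each of the 5 had a lower mean in wt than in both groups of AGAT-/- mice, as mir-130a-3p did, for example 404, 444 and 447 CPM for mir-191-3p in wt, AGAT-/- and AGAT-/-hArg mice. Most opposed were mir-1981-5p (-0.76), mir-351-5p (-0.71) and mir-193b-3p (-0.70). The other arm, mir-130a-5p, had a rho of 0.36, mir-301b-3p of 0.032 and mir-130b-5p of -0.14. The values share the groups and the library sizes of the 15 mice, and are a description.

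For mir-130a-5p the closest were mir-210-5p (0.75), mir-483-3p (0.69), mir-470-5p (0.68), mir-30d-5p (0.65) and mir-31-5p (0.61), and the most opposed were mir-6516-5p (-0.71), mir-5119-3p (-0.65) and mir-7068-3p (-0.575). Mir-210-5p, from the precursor of a miRNA known to rise in hypoxia, was in both lists, with 270, 358 and 337 CPM in wt, AGAT-/- and AGAT-/-hArg mice. It did not pass the FDR between AGAT-/- and wt mice (log2 fold change of 0.39 ± 0.11, FDR of 0.0757), although all 5 AGAT-/- mice lay above all wt mice. Of these miRNAs, mir-470-5p (log2 fold change of 1.80, FDR of 0.000970), mir-31-5p (0.57, FDR of 0.00168) and mir-5119-3p (-4.91, FDR of 2.08e-05) passed the FDR between AGAT-/- and wt mice, where 2.14% of all 562 miRNAs tested did. The choice by likeness to mir-130a-5p, whose values did not overlap between these groups, favours such miRNAs, and nothing further is read from this.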

How the data were processed

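The authors prepared small RNA libraries from LV RNA with the TruSeq kit and sequenced them on an Illumina instrument. The deposited values are raw counts: the authors mapped reads with the CLC Genomics Workbench to mouse miRNAs of miRBase and counted reads per mature miRNA. Release, mismatches and the treatment of reads matching several miRNAs are not given in the sources used here. The submitters' processing notes name GRCm38.

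All 15 libraries were used, grouped by their labels. Duplicate libraries were sought in the 30 pairs within groups, and none was found (chi-square/df of 2.53 to 16.8). Groups were compared with edgeR 4.0.16 (R 4.3.3; TMM, glmQLFit, glmQLFTest, 10 libraries per comparison, miRNAs with more than 10 summed reads, Benjamini-Hochberg FDR of at most 0.05). Standard errors and intervals follow from the F statistic. CPM use TMM factors over 15 libraries, and likeness used log2 CPM with 1 read added. Intervals for reads are exact binomial. The fit was tested on simulated data. Summaries used Python 3.11.15 and scipy 1.17.1. Alternatives were DESeq2 1.42.0, its size factors or total counts in edgeR, other read minimums, 15 libraries in 1 fit, a covariate for animal number (AGAT-/- vs wt; the last number in the library names, not the mouse numbers 1 to 15 used here, and its meaning is not stated) and leaving out each mouse. Mir-130b-5p and mir-301b-3p were added to these after seeing the data.

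Members and lists were chosen with earlier results of these data known. Named were all members, miRNAs with the family seed or the shifted seed, vascular and cell type lists (the 4 with most reads of the former), the 5 closest and 3 most opposed to each arm of mir-130a, and neighbours of mir-130a-3p in abundance.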

Additional observations from a re-analysis of the deposited data

How the results depend on the processing

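Mir-130a-5p in AGAT-/- vs wt mice was positive under all 6 alternatives (log2 fold changes of 1.26 to 1.31) and without each mouse (1.14 to 1.41). It passed the FDR under 5 of 6 alternatives, with DESeq2 at 0.0492, but not with the animal number as a covariate (1.29, FDR of 0.171), and without 6 of the 10 mice. The animal number largely went with genotype, as given above. Mir-130a-3p in this comparison did not pass under any of 6 alternatives or without any mouse (0.59 to 0.90, FDR of 0.052 to 0.372). In AGAT-/-hArg vs wt mice it passed under 3 of 5 alternatives, with total counts (0.92), at least 1 read (0.84) and all 15 libraries in 1 fit (0.82), and without 1 of 10 mice (0.73 to 1.05). No member passed in AGAT-/-hArg vs AGAT-/- mice under any alternative or without any mouse. In that comparison mir-130a-3p ran from 0.032 to 0.20 and mir-130a-5p from -0.813 to -0.475 without single mice.

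Mir-130b-5p, which did not pass, changed sign with the animal number as a covariate (-0.45) and without single mice, at -0.11 to 0.26 in AGAT-/- vs wt, -0.12 to 0.23 in AGAT-/-hArg vs AGAT-/- and -0.041 to 0.30 in AGAT-/-hArg vs wt mice. Mir-301b-3p kept its sign but not its size, at -0.79 with the animal number and -0.44 to -0.053, 0.28 to 0.63 and 0.043 to 0.44 without single mice in the same order.

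The count of miRNAs past the FDR in AGAT-/- vs wt mice was 12, with 8 to 18 under the alternatives (15 higher and 3 lower with at least 1 read) and 8 to 17 without each mouse, for example 5 higher and 3 lower without wt mouse 2, 14 and 3 without AGAT-/- mouse 6 and 8 and 5 without AGAT-/- mouse 7. In AGAT-/-hArg vs AGAT-/- mice it went from 4 to 8 with at least 1 read and to 2 with more than 10 reads in each library. In AGAT-/-hArg vs wt mice it went from 17 to 28 with at least 1 read and to 10 to 20 without each mouse, with 11 without wt mouse 5 (2 higher, 9 lower), 12 without AGAT-/-hArg mouse 14 (3 and 9) and 10 without AGAT-/-hArg mouse 15 (3 and 7). These read minimums change how many miRNAs are tested. For the other changes the cause was not tested. More than 10 reads in each library left mir-130a-5p and mir-301b-3p out of all comparisons and mir-130a-3p out of both with wt mice. DESeq2 gave no FDR for mir-130a-5p and mir-301b-3p in AGAT-/-hArg vs wt mice. With 3 to 22 reads of mir-130a-5p per library, counting error limits what single mice show.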
